A study of Mus musculus with 12 samples.

Results

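Oligodendrocyte precursor cells (OPC) were set against the neural stem cells (NSC) from whose cultures they were induced, before any oncogene was introduced. The comparison used the 2 arrays titled OPC and the 2 titled NSC, 4 of the 12 arrays in the series, and these labels alone chose them. Each gene was represented by the probe set that names it alone and has the highest mean over all 12 arrays. Of 18194 genes with such a probe set, 12788 had a mean above 5.18, the median of all deposited values, in at least 1 of the 6 groups and were tested, and the other 5406 were not. All values are on the log2 scale, where a difference of 1 is a factor of 2, and differences are given as OPC minus NSC.

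All groups were mouse cells of strain BL6 and genotype p53-/-, taken from the brain of the E14.5 embryo, so that no p53 wild-type cells are among them. The NSC came from the telencephalon and grew as floating spheres in a serum-free medium with forskolin (5 µM), PDGF (10 ng/ml) and bFGF. For OPC, such cultures were moved to DMEM with 0.25% FCS, bFGF at 2 ng/ml and PDGFAA at 10 ng/ml, and the cells were then purified by sequential immunopanning. The other 4 groups enter only as context: astrocytes (AST), induced from NSC cultures in DMEM with 10% FCS over 3 weeks, and NSCL61, OPCL61 and ASTL61, the cells of each kind that carry HRasL61, a constitutively active Ras, after electroporation, selection with 0.5 mg/ml neomycin and sorting for GFP. Cell type, medium, serum and immunopanning changed together between NSC and OPC and cannot be told apart. The labels do not say whether the 2 arrays of a group came from separate cultures. The p-values thus measure only the spread between arrays of a group, pooled over all 6 groups, which may be technical.

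Oligodendrocyte precursors arise from ventral neural progenitors under the basic helix-loop-helix factors Olig1 and Olig2, divide in response to PDGF through the receptor Pdgfra, and later mature into the myelin-forming cells of the brain. Neural stem cells of the embryonic telencephalon are known for Sox2, nestin and Notch signalling, and give rise to neurons, astrocytes and oligodendrocytes. Mesenchymal cells of the meninges and vessel walls, by contrast, secrete fibrillar collagens and carry contractile actin fibres.

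The 12 arrays had medians between 5.16 and 5.21. The 2 OPC arrays correlated at 0.991 over genes and the 2 NSC arrays at 0.980, and 4 genes lay more than 2 apart between the OPC arrays against 62 between the NSC arrays. Before the results it has to be said that the NSC arrays went against their label in part. Sox2, the transcription factor of neural progenitors, read 4.41 and 6.79 on them, against 11.99 and 11.89 on the OPC arrays. Prom1, which encodes the surface antigen CD133, read 4.54 and 3.68, under the median of all values. Nes, the intermediate filament nestin, was clearly present at 8.37 and 8.15. The same arrays carried Col1a2 at 13.80 and 13.66 and Acta2, smooth muscle actin, at 13.64 and 13.68, among their brightest genes. Below, "NSC" therefore stands for the arrays labelled NSC. In bulk RNA, fewer cells of a type and less RNA per cell cannot be told apart.

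Of the 12788 genes tested, 6572 (51.4%) passed an adjusted p of 0.05 (limma, Benjamini-Hochberg over all genes). OPC were higher for 3464 (27.1%) and lower for 3108 (24.3%), and the median difference over all genes tested was -0.01. The arrays of the groups did not overlap for 77.7% of genes, so that a lack of overlap alone separates little here. Among genes past the threshold, 1558 were higher and 1568 lower by at least 1, and both together made up 24.4% of genes tested. Differences of at least 8, a factor of 256, were found for 5 genes higher and 18 genes lower in OPC. Many of the large differences ended under the median of all values on the lower side: 618 of the higher genes had an NSC mean under 5.18, and 700 of the lower genes had an OPC mean under it. The deposited values carry no detection calls, so a fold change against such a low value is a ratio of signals only.

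**Figure D1:**
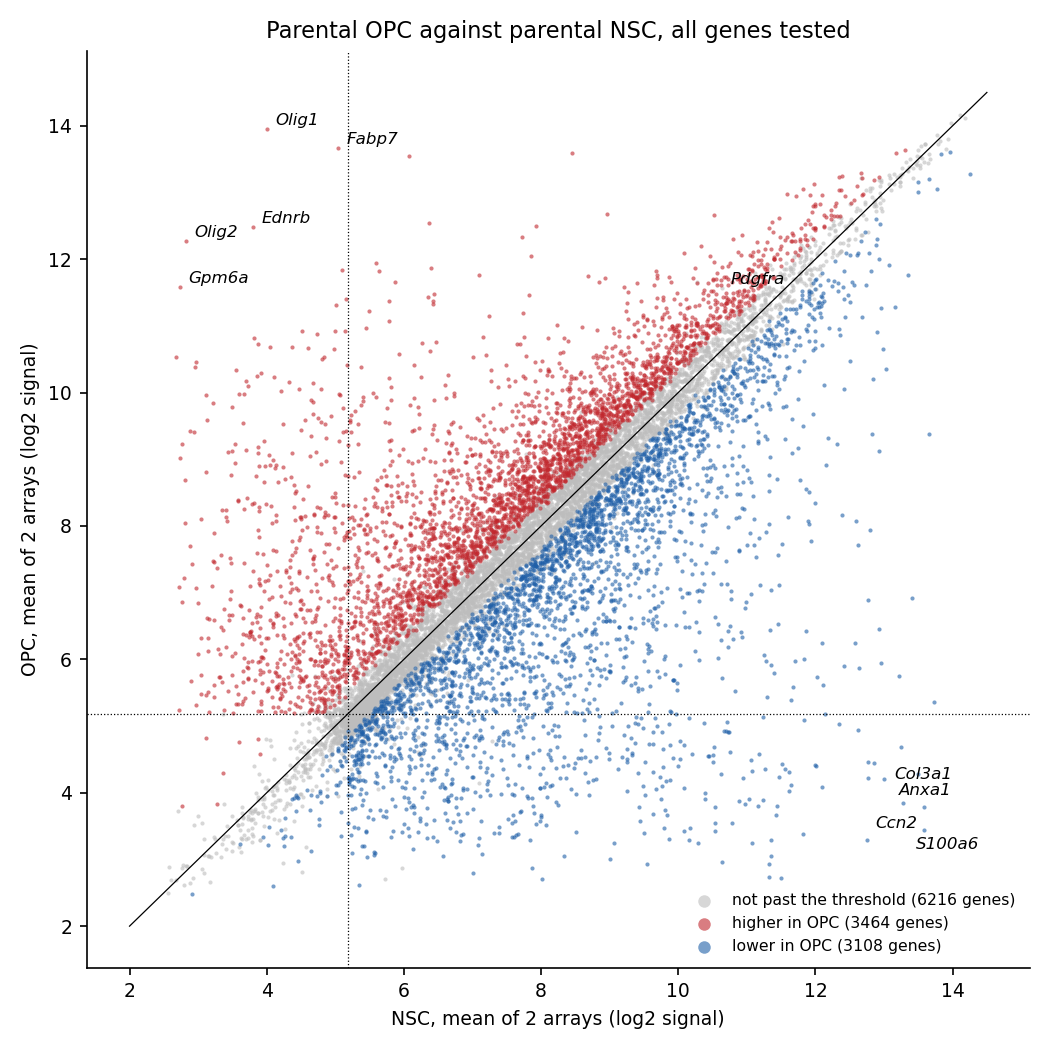
Mean log2 value on the 2 NSC arrays (x axis) against the mean on the 2 OPC arrays (y axis) for each of the 12788 genes tested; grey points did not pass the threshold, coloured points were higher (3464) or lower (3108) in OPC, and dotted lines mark 5.18, the median of all deposited values. Olig1, Olig2, Gpm6a, Ednrb and Fabp7 lie at the upper left and S100a6, Anxa1, Ccn2 and Col3a1 at the lower right, while Pdgfra lies near the diagonal.

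The largest increases were in Olig1 and Olig2, the 2 factors that specify the oligodendrocyte lineage. Olig1 read 4.26 and 3.76 on the NSC arrays and 13.86 and 14.04 on the OPC arrays. The difference was 9.94 ± 0.17 (SE, with n = 2 arrays a group, as throughout) or 979-fold (limma adjusted p = 8.4e-10). Each SE comes from the model, whose spread draws on all 6 groups and in part on other genes, and not from these 4 arrays alone. Olig2 rose from 2.96 and 2.69 to 12.31 and 12.24, by 9.45 ± 0.25, or 700-fold (limma adjusted p = 6.0e-09). The NSC values of both genes lie near the lower end of the scale, and neither gene's arrays came near overlapping. Fabp7, the brain fatty acid binding protein of radial glia and glial precursors, read 5.96 and 4.11 on the NSC arrays and 13.76 and 13.58 on the OPC arrays, a difference of 8.63 ± 0.49. Its 2 NSC arrays lay further apart than its 2 OPC arrays. S100a6, a small calcium-binding protein of dividing mesenchymal and glial cells, went the other way, with 13.59 and 13.59 in NSC and 3.38 and 3.49 in OPC. At -10.15 ± 0.14, a 1138-fold difference, it was the largest change of either direction among the genes tested.

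The promoter of Olig2 is shown because this gene stands for the lineage and because SOX proteins, several of which were higher in OPC, are known to bind sites of the kind marked. The 250 bases before its start (chr16:91225300-91225549, plus strand, mouse build GRCm38.p6, from RefSeq) hold 1 match to the SOX motif, searched as ACAAAG or ACAATG on both strands; the capitals mark it, as its reverse complement, 68 bases before the start.
Olig2: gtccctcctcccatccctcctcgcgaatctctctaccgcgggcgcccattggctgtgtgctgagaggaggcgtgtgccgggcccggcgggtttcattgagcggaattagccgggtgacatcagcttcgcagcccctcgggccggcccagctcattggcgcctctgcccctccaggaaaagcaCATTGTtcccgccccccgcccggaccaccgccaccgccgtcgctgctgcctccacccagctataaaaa
Of the 13 genes listed as OPC lineage transcription factors that have a promoter in the table, 7 (53.8%) held the motif in this window, and of 16 myelin genes 10 (62.5%) did. The motif was not particular to these lists: 8 of 12 neuronal genes (66.7%), 3 of 6 factors of epithelial-mesenchymal transition (50%), 4 of 9 endothelial genes (44.4%) and 5 of 15 OPC membrane and matrix markers (33.3%) held it too. The shares stand against 28.2% of all 27025 genes with a promoter, 21.7% of the genes higher in OPC and 19.2% of those lower. Such a match is a description of the letters and not a binding site.

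The next genes in order of difference followed, among genes past the threshold without overlap between the groups and without provisional symbols. Gpm6a, a neural membrane glycoprotein, read 2.81 and 2.66 in NSC and 11.50 and 11.66 in OPC, a difference of 8.85. Ednrb, the endothelin receptor B of glial precursors and astrocytes, rose from 4.11 and 3.48 to 12.45 and 12.51, by 8.69. Ugt8a, which makes the galactolipids of myelin, rose by 7.86, from 2.85 and 2.51 to 10.32 and 10.76. Lrrn1, a leucine-rich repeat membrane protein, rose by 7.48, Aldoc, the aldolase of glia, by 7.47, and Tox3, a chromatin-associated HMG-box protein, by 7.42. Gatm (creatine synthesis) rose from 3.80 and 3.83 to 10.93 and 10.70. Sox6 was higher by 6.86, Rlbp1 (retinaldehyde binding) by 6.84, Spon1 (the matrix protein F-spondin) by 6.80, Bcas1 by 6.75 and Rnf180 (a ubiquitin ligase) by 6.63. Among the 15 largest increases the highest NSC value was that of Aldoc, 6.31, and the lowest OPC value that of Rnf180, 9.70. A lack of overlap between the groups was a condition for choosing these 15.

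Of the 15 largest decreases 10 were genes of the extracellular matrix. After S100a6 came Anxa1, a membrane-binding annexin, with 13.57 and 13.58 in NSC and 3.89 and 3.68 in OPC, a difference of -9.80 or 889-fold. Ccn2, the secreted connective tissue growth factor, fell from 13.04 and 12.47 to 3.41 and 3.17, by 9.46. Lox, which cross-links collagen, fell from 13.19 and 13.34 to 4.12 and 3.57, by 9.42. Col5a2, a fibrillar collagen chain, read 13.37 and 13.63 in NSC and 4.15 and 4.41 in OPC. The collagens Col3a1 (-8.79), Col1a1 (-8.56) and Col1a2 (-8.38), the small proteoglycan Bgn (-8.57) and the matrix proteins Postn (-8.41), Efemp1 (-8.39) and Mgp (-8.32) fell by similar amounts. Pdgfrb, the PDGF receptor of pericytes and fibroblasts, fell by 8.58, and Anxa3 fell by 8.44. Ctsz, a lysosomal cysteine protease, stood outside these classes, with 11.40 and 11.60 in NSC and 2.86 and 2.60 in OPC.

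**Figure D2:**
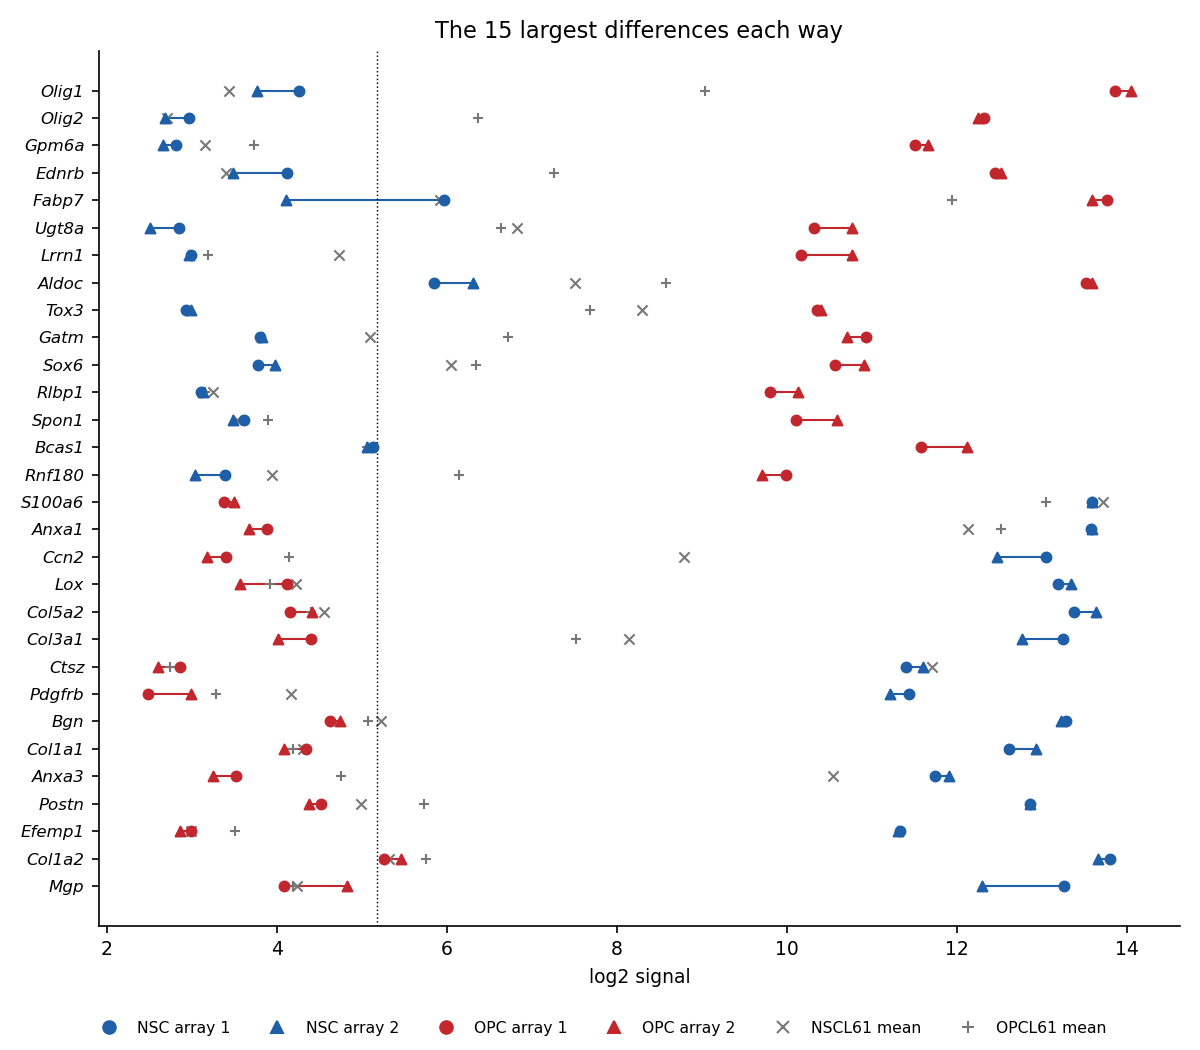
Log2 value on each array (x axis) of the 15 genes with the largest increase and the 15 with the largest decrease in OPC (y axis); blue stands for NSC and red for OPC, circles for array 1 and triangles for array 2, and grey marks for the NSCL61 mean (x) and the OPCL61 mean (+). Blue and red points are separated in every gene, as the choice of genes required. Grey marks lie close together for most, as for S100a6 at 13.72 and 13.04, and far apart for Ctsz at 11.71 and 2.75.

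Of 19 transcription factors listed for the OPC lineage, 16 had a probe set and 12 were tested. OPC were higher for 11 and lower for 0, where 27.1% of all genes tested were higher and 24.3% lower. The median difference was 2.94 over the 12 tested and 2.21 over all 16, against -0.01 over all genes tested. A mean above 5.18 in any 1 group sufficed for testing, so members could enter through the group where they are high. Of this list 12 genes were above 5.18 in OPC and 5 in NSC, and of the fibroblast and pericyte list 5 and 13. Counts among tested members lean towards that group and are descriptions only, here and in the lists below. The lists were also chosen with earlier results of these data known, so their counts and medians may in part reflect that choice. Sox8, a SoxE factor of oligodendrocyte differentiation, read 4.15 and 3.92 in NSC and 8.52 and 9.61 in OPC, a difference of 5.03 ± 0.32. Nkx2-2, the homeodomain factor that drives precursors towards differentiation, read 3.50 and 3.33 against 8.23 and 8.24, a difference of 4.82. Sox6, which with Sox5 keeps precursors from differentiating early, read 3.77 and 3.98 against 10.56 and 10.91. Sox5 itself rose by 2.81, from 5.32 and 5.23 to 8.01 and 8.16, and the zinc finger factor Myt1 by 2.76. Myrf, the master regulator of myelin genes, reached only 6.31 and 6.25 in OPC from 5.00 and 4.83 in NSC. Nfia, a gliogenic factor, rose by 3.08 and its relative Nfib by 1.43. Sox10, a defining marker of the lineage, was at 6.12 and 6.22 in NSC and 6.45 and 6.43 in OPC on the probe set chosen, and its 2 other probe sets differed by 0.89 and 2.21. Its call (limma adjusted p = 0.048) was lost when any 1 of the 4 arrays was left out, with differences of 0.22 to 0.33. Tcf7l2 did not pass, with 7.53 and 7.71 against 7.92 and 7.22.

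Among the membrane and matrix markers of OPC, 13 of 17 tested were higher and 1 was lower (Matn4, -0.45, lost without OPC array 2 and without NSC array 1), of 20 listed and 19 with a probe set, with a median of 5.89 over those tested and 5.69 over the 19. This list holds Gpm6a and Lrrn1, which are among the 15 largest increases above. Scrg1, a small secreted protein of glia, read 3.77 and 3.63 in NSC and 9.99 and 10.37 in OPC. Gpr17, a receptor of precursors committed to differentiate, read 3.70 and 3.63 against 9.43 and 10.52, and Lhfpl3 read 3.86 and 3.86 against 9.68 and 10.82. The lectican Bcan, which binds hyaluronan in the brain matrix, rose from 5.86 and 5.42 to 11.54 and 12.10, and the proteoglycan Cspg5 rose by 5.69. Cntn1, an axonal and glial adhesion molecule, rose by 6.07 on the probe set chosen and by 9.68 and 9.41 on the other probe sets. The arrays of these genes stayed well apart between the groups. The antigens most used to recognise OPC did not separate the cultures in the same way. Pdgfra, the receptor for PDGFAA, was high in both, at 10.52 and 10.77 in NSC and 11.29 and 11.85 in OPC, a difference of 0.93 ± 0.44 (limma adjusted p = 0.11). Cspg4, the NG2 proteoglycan, read 8.04 and 8.01 against 8.06 and 8.45 (limma adjusted p = 0.25). Both media held PDGF, and its part in these levels was not tested.

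Genes of myelin and of maturing oligodendrocytes moved unevenly. Of 20 listed, 19 had a probe set and 14 were tested, of which 8 were higher and 2 lower in OPC, with a median of 1.12 over those tested and 0.43 over the 19. Bcas1, a marker of newly forming oligodendrocytes, read 5.13 and 5.06 in NSC and 11.57 and 12.12 in OPC. Cnp, an early myelin enzyme, rose from 8.98 and 8.93 to 12.71 and 12.64, and Mbp, myelin basic protein, from 5.96 and 6.23 to 10.34 and 9.29. Of the 7 other Mbp probe sets, 5 rose by 4.11 to 7.31 and 2 read -0.21 and -0.32. Fa2h, which hydroxylates the fatty acids of myelin lipids, rose by 1.72 and the sulfatide enzyme Gal3st1 by 1.86. Of the 4 that did not pass, Mobp, a protein of compact myelin, read 5.83 and 5.54 against 5.62 and 5.42, the myelin proteolipid Mal 6.11 and 6.11 against 5.97 and 5.80, and Opalin 5.32 and 5.50 against 5.80 and 5.67. Lpar1, a lysophosphatidic acid receptor that fibroblasts also use, fell from 9.29 and 9.97 to 4.99 and 4.85, and the tetraspanin Tspan2 fell by 1.29.

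Genes of neural stem cells and radial glia were not higher in the arrays labelled NSC as a group. Of 17 tested, of 20 listed, 8 were higher in OPC and 5 lower, and the median was 0.89. The count of lower genes was 3 without either OPC array, 4 without NSC array 1 and 6 without NSC array 2. Sox3, a SoxB1 progenitor factor, read 4.67 and 4.83 in NSC and 9.58 and 9.65 in OPC, and Sox2 differed by 6.34 ± 0.57. Hes5, the Notch effector of neural progenitors, rose from 5.29 and 5.00 to 8.66 and 8.87, and its other probe set rose by 6.03. Nes was higher by 0.89, with 9.25 and 9.05 in OPC, and Lhx2, a telencephalic selector gene, by 3.21. Lower in OPC were, among others, Vim (vimentin, -0.73), with 13.78 and 13.78 against 13.24 and 12.85, and Fut4 (-0.91). Fut4 lay under 5.18 in both groups, at 4.1 and 4.5 against 3.4 and 3.3. Tnc fell by more than either, from 10.91 and 9.70 in NSC to 6.83 and 7.24 in OPC. Ccnd2 read 12.39 and 11.78 against 11.04 and 11.21. Pax6 read 4.34 and 6.09 against 6.12 and 6.09, Emx2 read 5.92 and 6.89 against 6.06 and 5.99, and neither passed. The Msi1 probe set chosen differed by -0.20 and its 2 others by 0.63 and 3.26.

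Regional identity genes moved both ways. Of 16 tested factors of the telencephalon and other regions, of 23 listed, 7 were higher and 5 lower, with a median of 0.58 over those tested and 0.10 over the 21 with a probe set. Pou3f3, a POU factor of the forebrain, rose from 4.35 and 4.38 to 10.72 and 10.63. En2, a midbrain and hindbrain gene, rose from 3.76 and 3.56 to 5.93 and 6.11. Falling genes were Nr2f2 (-2.41), Pax3 of the dorsal neural tube and neural crest (-2.25, from 7.71 and 7.78 to 5.46 and 5.54) and Dlx2 of the ventral forebrain (-1.86). Of the Hox genes, which the telencephalon lacks, 10 of 27 listed were tested, 3 were higher and 0 lower, and their median was 0.07. This share of higher genes is close to the 27.1% over all genes tested. Hoxd8 read 5.21 and 4.60 in NSC and 7.69 and 7.76 in OPC. Hoxa7 rose by 1.55. Hoxa5 rose by 1.11 on the probe set chosen and by 5.12 on its other, from 4.35 and 4.10 to 9.30 and 9.38. Hoxa3 differed by 0.25 on the probe set chosen and by 1.89, -0.10 and -0.23 on others.

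Astrocyte genes were higher in OPC more often than not. Of 16 tested, of 20 listed, 13 were higher and 1 lower, with a median of 2.95 over those tested and 2.28 over all 20. Aldoc read 5.85 and 6.31 in NSC and 13.52 and 13.58 in OPC. Mlc1, a membrane protein of astrocyte endfeet, rose from 3.78 and 3.66 to 10.13 and 10.08, and the lipid enzyme Acsbg1 from 5.01 and 5.00 to 11.30 and 11.35. These genes are shared by several glial cells, and the AST arrays, labelled astrocytes, had Aldoc at 5.52, Mlc1 at 3.63 and Acsbg1 at 5.44 on average. S100b rose by 4.44 and glutamine synthetase, Glul, by 3.07, from 8.73 and 8.64 to 11.70 and 11.81. Gfap, the filament protein of astrocytes, stayed modest at 7.73 and 6.07 in OPC against 4.98 and 5.15. Gja1, the main astrocytic gap junction protein, was the member that fell, from 12.10 and 12.17 to 10.67 and 9.55. Sox9 (7.88 and 7.83 against 8.46 and 8.36) and Clu (8.87 and 7.63 against 8.37 and 7.61) did not pass.

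Of 14 neuronal genes tested, of 18 listed, 8 were higher in OPC and 0 lower (2 lower without NSC array 2), with a median of 1.80 over those tested and 1.00 over all 18. Stmn3, a tubulin-binding protein, read 5.01 and 5.28 in NSC and 11.11 and 10.73 in OPC, and Map2, the dendritic microtubule protein, 5.07 and 5.91 against 11.11 and 11.36. Gap43, the growth cone protein, rose by 4.89, and the RNA-binding proteins Elavl3 and Elavl4 by 2.99 and 3.17. The core neuronal marker Rbfox3 did not pass, at 6.55 and 6.58 against 6.34 and 6.46, nor did Tubb3 at 8.53 and 7.75 against 7.16 and 7.63. Stmn2 differed widely between the NSC arrays, 9.35 and 5.22, and read 4.52 and 5.03 in OPC.

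Surface molecules that neural cells use to recognise each other were mostly higher. Of 27 neural adhesion and synaptic organiser genes tested, of 32 listed, 20 were higher and 2 lower in OPC (1 lower without NSC array 1 or either OPC array), with a median of 3.16 over those tested and 2.47 over the 30 with a probe set. On this list 26 genes were above 5.18 in OPC and 10 in NSC. Lsamp, a GPI-anchored limbic adhesion protein, read 3.54 and 3.63 in NSC and 8.33 and 8.43 in OPC. Astn1, an adhesion protein of neurons migrating on glia, rose from 3.83 and 3.99 to 10.29 and 10.32. Ncam2 rose by 3.85, Lrrc4 by 3.19 and Cntn1 as above. Ncam1 did not pass, at 9.21 and 8.43 against 8.69 and 8.83. Cadherins moved both ways: of 23 tested, of 27 listed, 13 were higher and 6 lower, with a median of 1.60 over those tested and 0.88 over the 27. Their share of lower genes was close to the 24.3% over all genes tested. Pcdh17 read 3.24 and 3.00 in NSC and 9.34 and 9.84 in OPC, and Cdh19, a cadherin of oligodendroglial and Schwann cell precursors, rose by 3.45. Cdh11, the cadherin of mesenchyme, fell from 12.37 and 11.93 to 8.98 and 8.84, and Pcdh18 (-3.01) and Pcdh19 (-3.00) fell. Cdh2, N-cadherin, did not pass, at 10.43 and 10.42 against 10.29 and 10.05.

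Receptors by which OPC sense neurotransmitters were more often higher than lower. Of 18 tested glutamate and GABA receptor genes and regulators, of 30 listed, 11 were higher and 2 lower, with a median of 1.05 over those tested and 0.40 over the 27 with a probe set. Grm5, a metabotropic glutamate receptor, read 2.84 and 2.68 in NSC and 9.11 and 9.35 in OPC. Gabrg1, a GABA-A receptor subunit, rose by 6.29. The AMPA receptor subunit Gria4 rose by 4.44 and its auxiliary subunit Cacng4 by 4.35. Gria2 rose by 0.93 on the probe set chosen and by 4.94 and 5.13 on others, and Grik3, at -0.15 on the probe set chosen, rose by 5.87 on its other. The GABA-A subunits Gabrb1 (-0.93) and Gabra4 (-1.03) fell. Of 17 ion channel genes tested, of 28 listed, 12 were higher and 1 lower (2 lower without NSC array 2), with a median of 1.59 over those tested and 0.42 over the 25 with a probe set. Among the listed channels 15 were above 5.18 in OPC and 6 in NSC. The voltage-gated potassium channel Kcnd2 rose from 3.76 and 3.10 to 8.86 and 9.37, and the glial inward rectifiers Kcnj16 and Kcnj10 by 3.58 and 4.89. Kcnk2, a mechanosensitive leak channel, fell by 2.43.

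Of 14 brain matrix genes tested, of 20 listed, 8 were higher in OPC, 1 was lower (2 without NSC array 2) and 5 did not pass, with a median of 1.85 over those tested and 0.41 over all 20. Tnr, tenascin-R, rose from 2.80 and 2.80 to 8.21 and 9.17. Phyhipl, which was listed here but is not a matrix protein, rose from 5.90 and 5.72 to 9.79 and 9.99. Vcan, the lectican that mesenchyme also makes, read 9.35 and 8.87 against 9.66 and 10.20 and did not pass. The glypican Gpc6 fell by 1.34.

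Fibroblast and pericyte genes were mostly lower in OPC. Of 13 such genes tested, of 18 listed, 0 were higher and 12 lower in OPC, with a median of -6.32 over those tested and -4.39 over the 17 with a probe set. Thy1, a surface glycoprotein of fibroblasts and some neurons, read 10.34 and 10.74 in NSC and 3.69 and 3.88 in OPC. Postn read 12.86 and 12.86 against 4.51 and 4.38, and Col6a2 12.78 and 12.36 against 6.62 and 5.86. Lum and Dcn, small leucine-rich proteoglycans of connective tissue, varied between the NSC arrays, at 7.66 and 5.30 for Lum and 9.44 and 8.54 for Dcn. Mcam, a pericyte surface antigen, did not pass, at 7.40 and 7.34 against 6.83 and 6.47. The median level of these 13 genes was 11.7 in NSC, 4.45 in OPC and 8.67 in AST.

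Transcription factors of the meninges and cranial mesenchyme were lower in 17 of 18 tested and higher in 0, of 22 listed, with a median of -3.20 over those tested and -2.58 over the 21 with a probe set. Prrx1 and Prrx2, homeobox genes of mesenchyme, fell from 10.87 and 10.78 to 5.27 and 5.77, and from 10.45 and 10.55 to 4.57 and 4.55. Foxc1, which the meninges need to form, fell from 10.17 and 9.62 to 5.62 and 4.79. Twist1 (-3.44), Tbx15 (-3.31), Alx1 (-4.35) and the retinoic acid binding protein Crabp2 (-5.11) fell as well. Zic1, also a gene of the dorsal neural tube, stayed at 9.02 and 9.47 in OPC after 11.44 and 10.89 in NSC. Foxd2 did not pass, at 5.52 and 5.46 against 5.49 and 5.51.

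Smooth muscle genes were lower in 19 of 20 tested and higher in 0, of 22 listed, with a median of -2.99 over those tested and -2.65 over all 22. Actg2, the gamma smooth muscle actin, read 11.02 and 10.95 in NSC and 3.78 and 3.89 in OPC, and Tagln (transgelin) 13.06 and 12.83 against 6.13 and 5.75. Acta2 varied between the OPC arrays, at 10.40 and 8.36, but lay under its NSC values of 13.64 and 13.68. Tpm2, a muscle tropomyosin, fell by 7.68, and the thin-filament protein Cnn1 fell by 5.59. The cytoskeletal Myh9 and Flna kept levels above 9 in OPC and fell to a lesser extent, with -2.32 for Myh9 and -2.56 for Flna. Des, the muscle filament desmin, did not pass, at 6.20 and 6.04 against 5.91 and 5.83.

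These 3 lists move with the labels of the arrays, and whether mesenchymal cells in the NSC cultures or expression by the NSC themselves gave these levels was not tested. Markers of other brain cells were tested less often. Of 15 microglial genes, 12 had means under 5.18 in both groups, 4 were tested and 1, Csf1r, was lower (-0.34), a call that was lost without NSC array 1 and without either OPC array. Of 6 endothelial genes tested, of 13 listed, 1 was higher (Ramp2, by 2.42) and 4 lower, among them Flt1, a VEGF receptor, at 9.17 and 7.78 against 5.69 and 5.78, and the median was -0.46. Among 5 sex-linked genes 1 was tested: Xist, the X-inactivation RNA, was present in both, at 10.30 and 9.85 in NSC and 11.91 and 12.26 in OPC.

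Of 25 collagen genes tested, of 29 listed, 20 were lower and 2 higher, with a median of -3.51 over those tested and -1.75 over all 29. Col4a1 and Col4a2, the basement membrane collagens, were both lower, Col4a1 by -6.76 and Col4a2 by -7.13, from 11.38 and 10.69 to 3.94 and 3.87. Col9a1 and Col9a3, chains of a collagen that sits on other fibrils, were the 2 that rose, by 1.94 and 0.82. Their other probe sets differed by 6.5 for Col9a1 and by 0.14 and 2.12 for Col9a3. Col11a1 did not pass, at 10.00 and 10.54 against 9.92 and 9.69. The enzymes that fold and cross-link collagen were mostly lower too, with 16 of 18 tested lower and 0 higher, of 20 listed, with a median of -2.19. Pcolce, which enhances procollagen cleavage, read 13.16 and 13.27 in NSC and 5.83 and 5.67 in OPC, and Loxl1 (-7.36) and the collagen chaperone Serpinh1 (-6.97) fell. Plod1 and Bmp1 did not pass, at -0.18 and 0.08.

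Of 27 matrix glycoproteins and small proteoglycans tested, of 32 listed, 24 were lower and 1 higher, with a median of -4.53 over those tested and -3.83 over the 30 with a probe set. Aspn (asporin) read 10.91 and 11.79 in NSC and 3.09 and 3.03 in OPC, and Thbs1 (thrombospondin-1) 12.01 and 11.28 against 4.21 and 4.02. Fbln5, which organises elastic fibres, fell by 7.30. Fn1, fibronectin, fell from 12.77 and 12.77 to 7.53 and 6.25, whereas Sparc, a matrix protein that glia also make, remained at 11.77 and 10.82 after 13.11 and 13.21. Eln (elastin) was the member that rose, by 1.17. Matrix proteases and their inhibitors were lower in 15 and higher in 2 of 23 tested, of 27 listed, with a median of -2.11. Timp1 fell from 12.45 and 11.75 to 3.96 and 4.22, while its relative Timp4 rose from 5.09 and 5.00 to 9.98 and 9.98. The membrane protease Mmp14 fell by 6.72, the gelatinase Mmp2 fell by 4.90, and Mmp16 rose by 1.15.

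Integrins, the receptors for these matrices, were lower in 8 and higher in 2 of 14 tested, of 18 listed, with a median of -0.84. Itgb8, which activates TGF-beta and is used by neural progenitors and glia, rose from 6.16 and 6.55 to 11.31 and 11.54. Itga8 fell from 9.09 and 10.03 to 6.25 and 6.05, and the collagen receptor Itga1 (-2.60) and the fibronectin receptor Itga5 (-2.64) fell too. Itga6, a laminin receptor, did not pass, at 8.86 and 8.81 against 9.14 and 8.72.

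Genes listed for YAP and TGF-beta were lower in 21 and higher in 1 of 26 tested, of 27 listed, with a median of -1.70. These 2 pathways couple adhesion and matrix to transcription. The list holds targets as well as pathway components, such as Yap1, Tead1 and the TGF-beta receptor genes, so the counts are not of targets alone. Ccn1, a secreted matricellular protein and YAP target, read 12.15 and 11.57 in NSC and 6.50 and 6.34 in OPC, next to Ccn2 above. Ankrd1, another YAP target, fell from 7.52 and 8.24 to 3.76 and 3.84, and the TGF-beta receptor Tgfbr2 from 10.51 and 10.78 to 6.02 and 5.43. The coactivator gene Yap1 itself fell by less, from 10.49 and 10.36 to 9.14 and 8.59, and so did the DNA-binding partner Tead1 (-1.66). Tgfbr1 was the member that rose, by 0.96. Skil and Tead2 did not pass, at -0.16 and -0.33.

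Promoters of 4 genes lower in OPC are shown because TEAD proteins, through which YAP acts, are known to bind the letters marked and these members fell together: Ccn1 and Ankrd1 from the YAP list, and Acta2 and Vcl (vinculin, a focal adhesion protein that fell by 3.31) from the smooth muscle list. Each sequence is the 250 bases before the start in GRCm38.p6 from RefSeq, 5′ to 3′ along the gene, and the capitals mark CATTCC or its reverse complement. Ccn1 lies at chr3:145649986-145650235 (minus strand, match 103 bases before the start), Ankrd1 at chr19:36119845-36120094 (minus strand, matches 210 and 123 bases before), Acta2 at chr19:34255374-34255623 (minus strand, 146) and Vcl at chr14:20929148-20929397 (plus strand, 143).
Ccn1: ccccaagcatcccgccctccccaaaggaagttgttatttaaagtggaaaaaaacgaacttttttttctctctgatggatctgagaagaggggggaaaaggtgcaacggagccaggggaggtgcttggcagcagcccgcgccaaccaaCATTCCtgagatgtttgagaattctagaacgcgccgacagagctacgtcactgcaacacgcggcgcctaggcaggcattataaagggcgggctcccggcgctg
Ankrd1: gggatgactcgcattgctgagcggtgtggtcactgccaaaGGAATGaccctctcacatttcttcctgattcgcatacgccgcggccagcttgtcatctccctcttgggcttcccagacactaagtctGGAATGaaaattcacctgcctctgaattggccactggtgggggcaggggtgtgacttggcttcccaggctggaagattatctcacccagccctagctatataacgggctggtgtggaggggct
Acta2: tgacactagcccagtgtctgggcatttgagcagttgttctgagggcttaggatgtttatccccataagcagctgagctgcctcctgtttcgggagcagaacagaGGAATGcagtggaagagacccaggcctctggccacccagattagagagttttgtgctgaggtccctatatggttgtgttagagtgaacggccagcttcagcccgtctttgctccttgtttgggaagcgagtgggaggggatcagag
Vcl: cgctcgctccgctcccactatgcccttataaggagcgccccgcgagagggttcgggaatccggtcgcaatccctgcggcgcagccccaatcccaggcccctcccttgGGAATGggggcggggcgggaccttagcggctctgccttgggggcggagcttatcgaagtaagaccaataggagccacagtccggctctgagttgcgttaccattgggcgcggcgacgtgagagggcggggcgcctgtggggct
On both strands CATTCC was found in 9 of 18 smooth muscle genes (50%) and in 8 of 18 YAP and TGF-beta genes (44.4%) with a promoter in the table. The next highest share among the lists was 33.3%, in 2 of 6 factors of epithelial-mesenchymal transition. Over all 27025 genes the share was 14.4%, over the genes lower in OPC 14.6% and over those higher 12.6%. No gene was on both lists. The YAP and TGF-beta list holds known targets along with pathway components. The shares describe the lists and not the difference between the cultures.

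Calcium-binding S100 proteins, annexins and galectins were mostly lower: 18 of 21 tested were lower and 2 higher, of 23 listed, with a median of -4.23. Ahnak, a giant scaffold that binds annexin A2, read 11.26 and 10.87 in NSC and 3.16 and 3.32 in OPC. Anxa2 fell from 13.45 and 13.37 to 7.42 and 6.42, and Anxa4 from 10.10 and 10.08 to 3.31 and 3.55. Lgals3 (galectin-3) fell by 7.60, while Lgals1 (galectin-1) stayed among the brightest genes at 13.49 and 13.05 after 14.22 and 14.27. The 2 members that rose were S100b, from 5.34 and 5.42 to 9.43 and 10.21, and S100a16, from 7.32 and 6.88 to 11.39 and 12.13. Genes of caveolae and of actin regulation were lower in 17 and higher in 0 of 18 tested, all 18 listed, with a median of -2.78. Cav1, the coat protein of caveolae, fell from 12.66 and 12.01 to 4.87 and 5.21, and Cavin1 (-5.38) and Cavin3 (-4.07) fell with it. The focal adhesion protein Zyx fell by 3.13, and Pdlim7 did not pass (-0.81, its other probe sets -5.17 and -0.51).

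Receptors and ligands of growth factors moved both ways. Of 22 PDGF and FGF genes tested, of 23 listed, 4 were higher and 10 lower, with a median of -0.54. Fgfr3, the FGF receptor of glial precursors, rose by 2.83, to 9.43 and 8.46. Fgfr1 (-1.34) and Fgfr2 (-1.40) fell, and Fgf7, a ligand made by mesenchyme, from 11.34 and 11.69 to 4.25 and 4.61. The intracellular FGF-like proteins Fgf13 and Fgf12, which regulate sodium channels, rose by 4.81 and 2.71, and the decoy receptor Fgfrl1 by 1.61. The ligand gene Pdgfc (-2.73) and Pdgfd (-3.93) fell. Of 19 ERK feedback and Ets genes, of 20 listed, 9 were higher and 6 lower, with a median of 0.32. The Ets factors Etv5 and Etv4 rose by 2.77 and 0.95 and the feedback inhibitors Spry2 and Spry1 by 1.84 and 1.65. The AP-1 factors Fosl2 (-4.83) and Fosl1 (-3.88) fell, and the stress gene Ier3 fell from 11.68 and 11.26 to 3.86 and 4.61. Dusp6, an ERK phosphatase, did not pass, at 9.47 and 9.34 against 9.65 and 9.57, nor did Myc, at 9.76 and 10.02 against 9.83 and 10.10.

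Notch, Id and BMP genes moved both ways. Of 29 tested, of 34 listed, 13 were higher and 8 lower, with a median of 0.23. The lower share was close to the 24.3% over all genes tested. The Notch ligands Dll3 and Dll1 rose from 4.50 and 4.45 to 9.53 and 10.58, and from 5.52 and 5.93 to 9.68 and 9.45. The receptor Notch1 rose by 2.90 and the feedback regulator Nrarp by 3.25, whereas Notch2 fell by 0.96. Among BMP genes, Bmp4 fell from 9.64 and 9.61 to 6.88 and 7.05, the antagonist Grem1 from 9.71 and 11.07 to 4.23 and 3.76, and the inhibitory Smad6 (-4.59) and the target Id1 (-3.45) were lower. Values of other Id and BMP genes lay higher in OPC, with differences of 1.35 for Id2, 1.5 for Id4, 1.97 for Bmpr1b and 0.91 for Bmp7. Jag1 and Bmpr2 did not pass, at 0.19 and 0.23. The endothelin list held 5 tested genes of 7, of which Ednrb rose and 3 fell, with a median of -0.50: Edn1, the ligand gene (-1.22), the converting enzyme gene Ece2 (-1.10), and Ece1 (-0.50), a call that was lost without OPC array 1 and without either NSC array.

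Of 30 Wnt genes tested, of 34 listed, 6 were higher and 14 lower, with a median of -0.49; the count of lower genes was 9 without OPC array 2. The secreted inhibitors Dkk3 and Sfrp2 fell from 9.35 and 9.64 to 5.14 and 4.79, and from 7.23 and 8.18 to 3.67 and 3.79. The receptors moved both ways, with Fzd6 (-4.60) and Fzd7 (-2.93) lower and Fzd9 (2.13) and Fzd3 (4.28) higher. The feedback target Axin2 and the receptor Lgr5 rose by 1.53 and 1.91, and the ligand Wnt7b by 1.58. Of 11 hedgehog genes tested, of 13 listed, 3 were higher and 5 lower, with a median of -0.27. The higher share here was about the 27.1% over all genes tested. Ptch1, the receptor and a target of the pathway, rose from 7.69 and 8.49 to 10.11 and 9.98, while the effectors Gli2 (-1.97) and Gli3 (-2.23) fell and Smo did not pass at 8.27 and 8.24 against 8.02 and 7.95. Of 41 axon guidance genes tested, of 45 listed, 8 were higher and 15 lower, with a median of -0.13. Slit2, a repellent for axons and precursors, fell from 11.32 and 11.14 to 3.87 and 3.92 and Sema3c was lower (-5.02), whereas Sema6d rose by 4.44, Plxnb3 by 2.77 and Ephb1 by 2.84.

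The lists of lipid genes differed in direction. Of 17 fatty acid binding and lipid transport genes tested, of 19 listed, 12 were higher and 2 lower, with a median of 0.85. Elovl2, which elongates polyunsaturated fatty acids, rose from 2.84 and 2.92 to 7.66 and 7.74, and Apoe from 9.24 and 6.48 to 11.48 and 12.63. Apod and Fabp3 were the 2 that fell (-3.92 and -3.65). Of 14 ganglioside and sulfatide enzymes tested, of 15 listed, 4 were higher and 6 lower, with a median of -0.15, and the share of higher genes was close to that over all genes; the lower count was 3 or 4 when any 1 array was left out. St8sia1, the GD3 synthase whose product marks early OPC, rose from 4.04 and 3.54 to 8.02 and 8.66. Ugcg and St3gal2, which act earlier or on other branches, fell (-1.99 and -1.53). Of the 2 polysialic acid enzymes St8sia4 rose, from 3.19 and 3.09 to 6.30 and 6.33, and St8sia2 did not pass (median of both 1.63). Of 19 cholesterol synthesis genes tested, of 22 listed, 4 were higher, 1 lower and 14 not past the threshold, with a median of 0.28, a smaller share of higher genes than the 27.1% over all genes. Dhcr7 and Tm7sf2 rose by 1.61 and 1.72 and Ebp fell by 1.31. The higher count was 2 without NSC array 1 and without either OPC array, and the lower count was 2 without NSC array 1.

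Both cultures expressed the genes of dividing cells. Of 26 replication and G1/S genes tested, all 26 listed, 14 were higher and 1 lower in OPC, with a median of 0.52, and of 25 mitotic genes tested, of 26 listed, 13 were higher and 1 lower, with a median of 0.56. The counts of higher genes moved with single arrays: without OPC array 1 they were 5 and 6, without OPC array 2 14 and 16, without NSC array 1 9 and 10, and without NSC array 2 7 and 8. The counts of lower genes were 2 and 3 without OPC array 1 and 1 and 1 without any of the other arrays. A group left with 1 array was taken to vary like the others. Mki67, the proliferation antigen, read 9.90 and 9.84 in NSC and 11.20 and 11.05 in OPC, Top2a 10.55 and 10.54 against 11.78 and 11.62, and Mcm7 11.25 and 11.35 against 12.35 and 12.17. E2f1 and the cyclin gene Ccnb2 fell (-1.31 and -2.34). Among 14 CDK inhibitors and D cyclins, 5 were higher and 5 lower, with a median of 0.22. Cdkn2b, the p15 inhibitor that TGF-beta induces, fell from 10.52 and 10.48 to 4.39 and 4.52, and Cdkn2a from 10.16 and 10.31 to 7.38 and 7.49. Rb1 rose by 2.29, Cdkn2c by 0.87 and Ccnd1 by 1.13, and Cdk4 read 11.52 and 11.49 against 11.50 and 11.50.

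Interferon and MHC class I genes were mostly lower. Of 17 tested, of 25 listed, 13 were lower and 0 higher, with a median of -1.78. Ifitm3, an antiviral membrane protein, fell from 11.86 and 12.36 to 5.60 and 5.62, and B2m, the class I light chain, from 13.05 and 12.92 to 10.82 and 10.51. Of 24 chemokines and cytokines tested, of 29 listed, 2 were higher (1 without NSC array 1 or either OPC array) and 9 lower and 13 did not pass, with a median of -0.49. Cxcl12 fell from 11.27 and 11.27 to 4.13 and 4.57, while its receptor Cxcr4 rose from 3.78 and 3.19 to 7.68 and 7.21. Csf1, the growth factor of microglia, fell by 3.35, and Ccl2 fell by 4.24.

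Metabolic and growth lists gave mixed directions. Of 21 IGF and imprinted genes tested, of 24 listed, 3 were higher and 11 lower, with a median of -0.66; the higher count was 1 without OPC array 2 or NSC array 2 and 5 without NSC array 1. Igfbp3 rose from 4.77 and 4.52 to 10.15 and 9.62, whereas Igfbp6 (-5.24) and Igfbp7 (-5.61) fell and the signalling adaptor Grb10 from 12.10 and 11.94 to 5.68 and 5.79. Of 23 hypoxia and glycolysis genes tested, of 25 listed, 3 were higher and 12 lower, with a median of -0.60. The peptide hormone Adm fell from 10.80 and 10.67 to 4.98 and 4.83 and the glucose transporter Slc2a1 was lower (-1.92), while Ldhb, the lactate dehydrogenase subunit of neural tissue, rose by 2.30 and the neuronal transporter Slc2a3 by 2.03. Gapdh did not pass, at 13.58 and 13.34 against 13.54 and 13.32. Of 12 epigenetic and oncofetal genes tested, of 18 listed, 6 were higher and 3 lower, with a median of 0.41. The lower share was about the 24.3% over all genes tested. Tet1 rose by 2.02 and Ezh2 by 1.45, and the fetal growth genes Hmga2 (-3.89) and Igf2bp1 (-2.52) fell.

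Transcription factors known from epithelial-mesenchymal transition moved both ways. Of 10 tested, all 10 listed, 3 were higher and 6 lower, with a median of -3.47. The higher share was close to the 27.1% over all genes tested. Snai2 and Snai1 fell from 10.99 and 11.13 to 4.25 and 4.72, and from 8.46 and 7.70 to 4.36 and 3.93. Zeb1 rose by 1.73, from 9.52 and 9.87 to 11.30 and 11.54, and Tcf4 by 1.20. Zeb2, higher by 0.96, lost its call when any 1 array was left out. Twist1 and Prrx1 stand on the meningeal list too.

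**Figure D3:**
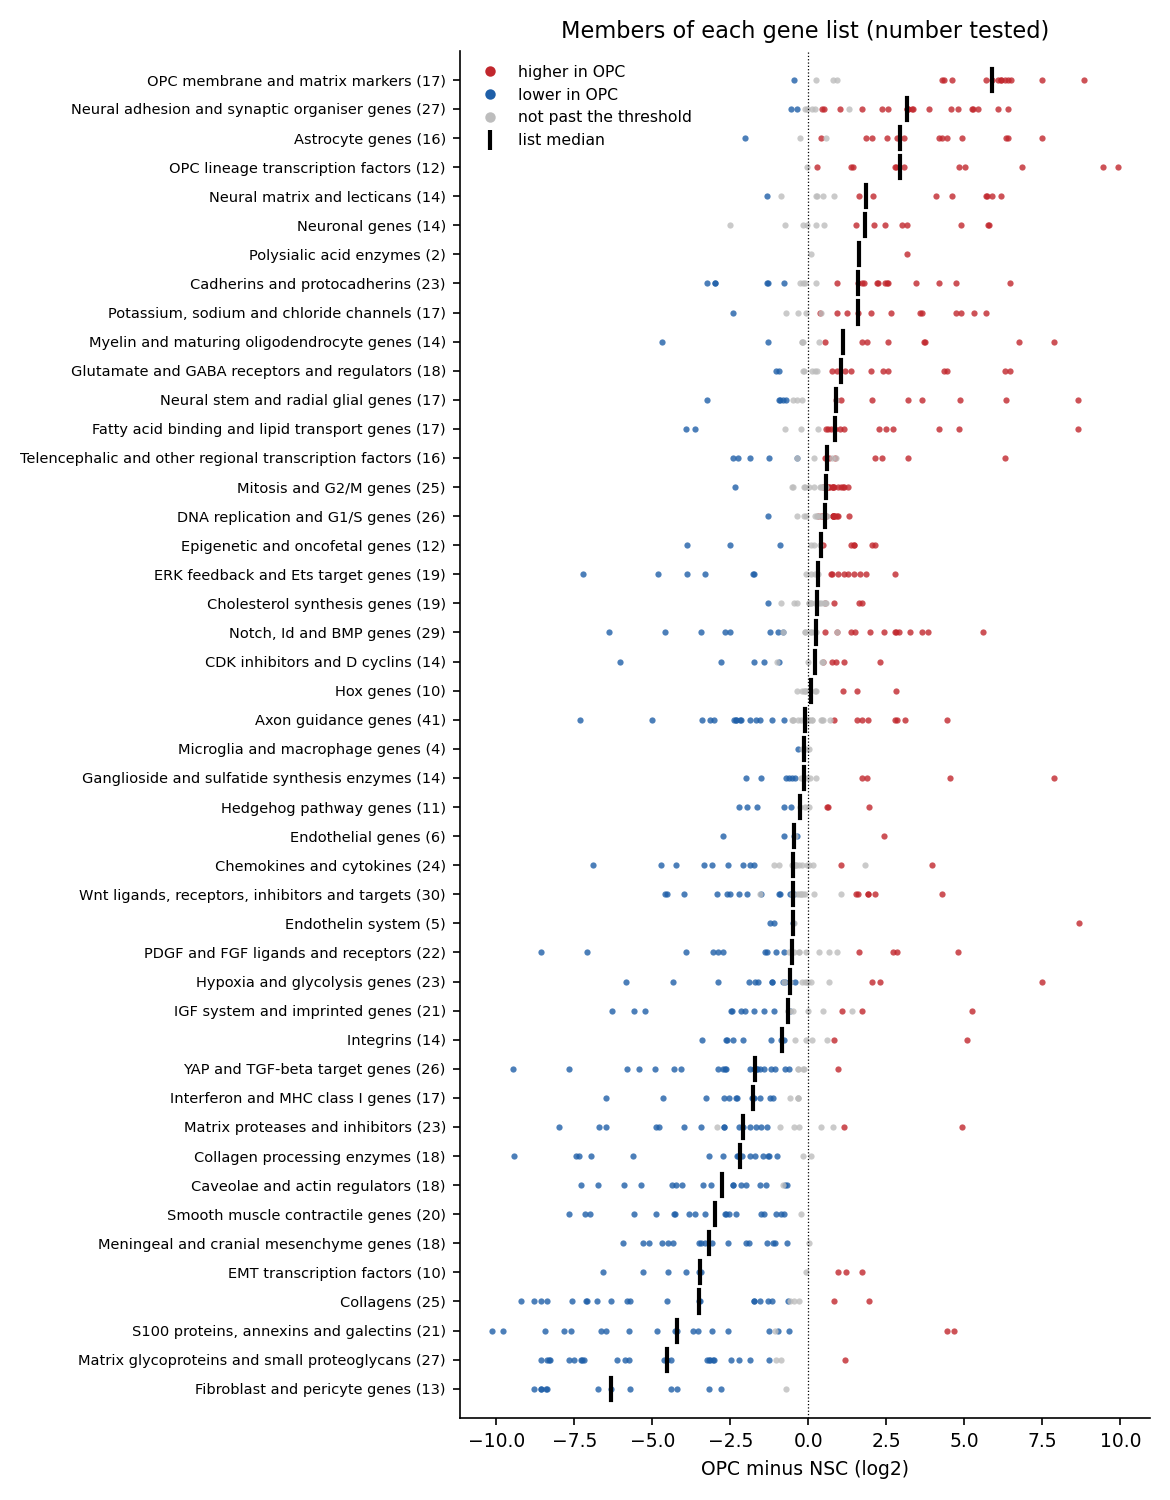
Log2 difference OPC minus NSC (x axis) of each tested member of each gene list (y axis), ordered by median; each point is a gene and the black bar is the list's median. The medians run from -6.32 for fibroblast and pericyte genes to 5.89 for OPC membrane and matrix markers, against -0.01 over all genes tested. The lists were chosen with earlier results of these data known.

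The difference between the parental cells was then set against the same difference between the lines that carry HRasL61. The lines share no arrays with the parental cells, but the test of the 2 differences holds the parental values. The lines also went through electroporation, neomycin and sorting, which cannot be told apart from the oncogene. OPCL61 and NSCL61 differed in 3405 genes (26.6% of 12788), 1691 (13.2%) higher and 1714 (13.4%) lower in OPCL61. The difference of the 2 differences passed for 4828 genes (37.8%; limma, Benjamini-Hochberg). Of the 6572 genes that differed between the parental cells, 3883 passed this test, and in 3762 of these the difference was smaller in the lines or had turned. These genes were picked by the parental difference, which is part of the test. A smaller difference in the lines was therefore favoured in advance. Between the lines 1600 of the 6572 also passed in the same direction and 505 in the opposite direction. Of the 30 genes with the largest parental differences 29 passed the test of the difference. As the same parental values chose these 30, a pass was likely in advance and is a description only. Ctsz did not pass, with -8.77 in the parental cells and -8.97 in the lines (limma adjusted p = 0.50).

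Olig1, Olig2 and Fabp7 kept part of their difference. Olig1 had a mean of 9.03 in OPCL61 and 3.44 in NSCL61, a difference of 5.60 that was smaller than the parental one by 4.34 ± 0.24. Olig2 had 6.36 and 2.71, and its difference was smaller by 5.80, while Fabp7 had 11.94 and 5.92 and a difference smaller by 2.61 (limma adjusted p = 0.016). Gpm6a, Rlbp1 and Bcas1 were low in both lines, with OPCL61 means of 3.73, 3.16 and 5.06. Ugt8a and Tox3 stood at intermediate levels in both, 6.83 and 6.64 in NSCL61 and OPCL61 for Ugt8a and 8.29 and 7.69 for Tox3. Of the 12 OPC lineage factors tested, 5 were higher and 0 lower in OPCL61 than in NSCL61, and 9 passed the test of the difference. The shares over all genes tested were 13.2% higher, 13.4% lower and 37.8% past that test. Over the 17 OPC membrane markers the median level was 5.21 in NSC, 10.46 in OPC, 5.21 in NSCL61 and 5.68 in OPCL61.

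Genes lower in OPC took several levels in the lines. Of the 10 matrix genes among the 15 largest decreases, 8 had means under 6 in both lines: Col5a2 had 4.56 in NSCL61 and 4.40 in OPCL61, Lox 4.23 and 3.91, and Bgn 5.23 and 5.07. The other 2 were higher, with Ccn2 at 8.78 in NSCL61 and 4.14 in OPCL61 and Col3a1 at 8.14 and 7.52. Fibroblast and pericyte genes had a median level of 11.7 in NSC, 5.32 in NSCL61 and 5.73 in OPCL61, and collagens 10.3, 6.15 and 5.94. S100a6 and Anxa1 were high in both lines, S100a6 at 13.72 and 13.04 and Anxa1 at 12.13 and 12.51, near their NSC values. Other genes kept the parental direction: Ctsz as above, Anxa3 with 10.54 and 4.75, Lgals3 with a line difference of -7.80 against -7.60 (limma adjusted p of the difference = 0.83) and Cdkn2b with -5.61 against -6.04 (0.22). Of the 21 S100, annexin and galectin genes 16 passed the test of the difference, and 9 were lower in OPCL61 than in NSCL61. Over all genes tested 37.8% passed that test and 13.4% were lower in OPCL61.

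**Figure D4:**
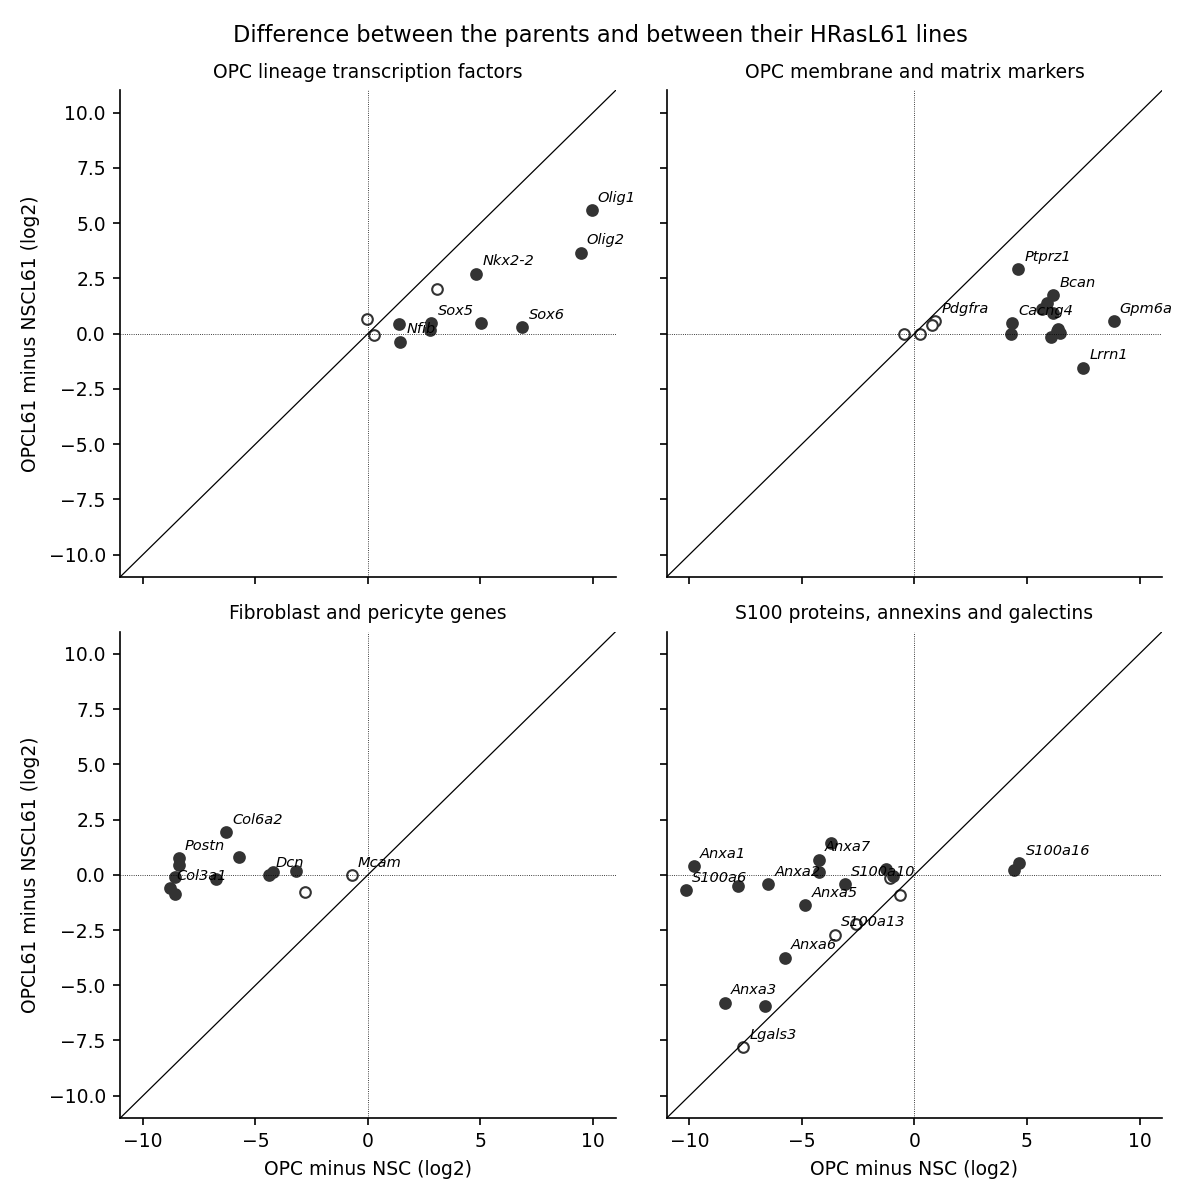
Log2 difference OPC minus NSC (x axis) against OPCL61 minus NSCL61 (y axis) for the tested genes of 4 lists, with the line of equality; filled points passed the test of the difference between the 2 (limma, adjusted over all genes). Gpm6a (8.85 against 0.57) and Col1a1 (-8.56 against -0.12) lie near 0 on the y axis, while Olig1 (9.94 against 5.60) and Lgals3 (-7.60 against -7.80) lie nearer the line of equality.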

How the data were processed

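Total RNA of 12 samples was labelled with biotin by in vitro transcription and hybridised to 1 Affymetrix array each, per the labels' protocols. What the authors deposited is a log2 signal for each of 45101 probe sets, between 2.14 and 14.33. No source used here gives their background correction, summary or normalisation. The similar array medians were found from the values. The number of arrays, not read depth, limits the precision. Symbols came from the platform annotation: 34958 probe sets had 1 gene symbol, 932 had several and were left out, and 34754 matched a RefSeq Entrez identifier.

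Each gene was read from its brightest probe set on average over 12 arrays, and genes with a mean above 5.183 in at least 1 group were tested with limma 3.58.1 (R 4.3.3), all 6 groups in 1 model, 2-sided, Benjamini-Hochberg over 12788 genes, threshold 0.05. The fit was tested on simulated data. Named were the 15 largest differences each way and the 4 markers given with the comparison. The 15 were taken from genes past the threshold whose arrays did not overlap between the groups, without provisional symbols such as clone names. From each list the members with the smallest p each way were named, with some that did not pass. Further members were named after their values were seen, to show roles. The members and lists were chosen with earlier results of these data known. Promoters came from RefSeq (GRCm38.p6). Alternatives covered normalisation, filter, probe set, order of filtering, samples in the model, array weights, prior, a minimum fold change, the replicate block and each array left out. The transcripts of the introduced oncogene and of the deleted gene are not reported here.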

Additional observations from a re-analysis of the deposited data

Results flagged for a closer look

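The difference between OPC and NSC changed in the lines that carry HRasL61, by a test of the difference itself (limma, Benjamini-Hochberg over 12788 genes), for 4828 genes. It was smaller in the lines by 4.34 for Olig1, 5.80 for Olig2 and 2.61 for Fabp7. For S100a6 the parental difference minus the line difference was -9.47, as both lines were near the NSC level. Of the 30 genes with the largest parental differences 29 passed, all but Ctsz. They were chosen by parental values that the test also holds, so this count was favoured in advance.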

How the results depend on the processing

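With 2 arrays a group, precision rests on a spread pooled over 6 groups. The count of 6572 genes ranged from 4943 to 6952 over other normalisations, filters, probe sets, weights, priors and models. Both ends came from the filter, which changed the number of genes tested. With a filter at the 75th percentile 4943 were 59% of 8380, and without a filter 6952 were 38.2% of 18194, against 51.4% in the main fit. Against a minimum fold change of 2 (limma treat) the count was 1738, with 817 higher and 921 lower. With 1 array left out, its group's lone array taken to vary like the other groups, the counts were 5191 to 5561 in all, 2721 to 2935 higher, 2420 to 2644 lower, and 3832 to 4397 for the difference from the lines. With the replicate number as a block the counts were 6471, 3427, 3044 and 4810; deviations of same-numbered arrays correlated at 0.0064 over genes, although 3 control sets for 18S RNA shifted alike by array number (values under the other observations). Of 579 called genes from the lists and the largest differences, 506 to 538 kept their call without 1 array and 545 to 576 under other normalisations, weights, prior, the block or the 4 arrays alone. Over all genes, taking the mean of all probe sets gave 11 calls the opposite direction, and choosing the probe set on the 4 arrays 7. Among genes from the lists and the largest differences that were called under at least 1 of the settings compared, the mean turned the sign of Grik3 (2.86), Msi1 (1.23), Nkd1 (1.78), Rbfox3 (0.56), Wnt7a (0.96) and Rbl1 (-0.0014), of which Rbl1 alone was called before (0.74). Choosing on the 4 arrays turned Grik3 (5.87), Ncam1 (1.46) and Nkd1 (4.40); the probe sets of these genes differ.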

Other observations

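Genes above 5.18 in both groups had unequal medians by chromosome, against 0.01 over all 10722 of them. The 855 genes on chromosome 2 had a median difference of -0.19, with 12.7% higher and 34.7% lower in OPC, and the median was negative in each of the 4 pairings of an OPC with an NSC array. The 440 genes on chromosome 15 had a median of 0.22, with 38% higher and 15.5% lower, positive in each of the 4 pairings. These chromosomes are named because their medians were the lowest and the highest. The pairings share the same 4 arrays, and other chromosomes also kept 1 sign in all of them. Among these were chromosome 11, with a median of 0.14, and chromosome 19, with -0.14.

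Some genes lay far apart between arrays of 1 group. Between the NSC arrays Serpinb2, a plasminogen activator inhibitor, read 9.11 and 2.82, Nrn1, a neurite growth protein, 4.04 and 9.14, and Igfbp2 12.51 and 8.02. Between the OPC arrays Scg2, a secretory granule protein, read 9.27 and 5.40 and Egr1, an immediate early gene, 6.87 and 9.18. The control probe set for the 5′ part of 18S RNA was lower on array 1 than on array 2 in both groups, at 7.91 and 12.13 in NSC and 8.71 and 12.59 in OPC. The sets for its middle part (0.83 in NSC and 0.95 in OPC) and its 3′ part (0.57 and 0.58) were higher on array 2 than on array 1 by similar amounts in both groups.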
